A study of Sus scrofa domesticus with 9 samples.

Results

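Galectin-3, osteopontin and 5 further genes of lipid-associated macrophages were followed in the liver of preterm piglets that received parenteral nutrition (PN) or were bottle-fed. The 7 genes were LGALS3, SPP1, GPNMB, TREM2, CD9, CD63 and CD68, of 16223 genes in the deposited table of all genes, which lists each of them except TREM2, and 1054 genes with counts for each library. They were chosen by symbol with their measured values in this same comparison already known, so the values below are a description and no test is given for them. LGALS3, SPP1, GPNMB and TREM2 had counts in each library, and the other 3 (CD9, CD63 and CD68) had only the authors' mean over libraries.

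RNA-Seq was performed on liver of 9 Yorkshire piglets delivered preterm and sacrificed at day of life 15, 3 bottle-fed and 6 given PN. All piglets carried a central venous catheter and began life on PN with a soybean oil lipid emulsion. The PN piglets stayed on it until sacrifice and were given a medium chain triglyceride vehicle by orogastric gavage each day, whereas the bottle-fed piglets were moved to sow milk replacer over the first days. The PN piglets came from an earlier cohort, and from other litters, so feeding, vehicle, cohort and litter cannot be told apart. The samples were whole pieces of the right median lobe, in which more cells of a type and more RNA per cell cannot be told apart.

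The bottle-fed libraries held 17106838 to 24025142 counts each and the PN libraries 17337946 to 23421807. The study set aside a PN library as an outlier, which the labels do not name and which was read from its clustering plot as PN 5. PN 5 stood apart in several genes below, so PN means are given over the other 5 PN livers and the value of PN 5 stands beside them. The authors' means of 12 hepatocyte markers ran from 28.9 to 1887000 normalized counts, the highest being that of ALB (albumin). Of these markers only CPS1, the first enzyme of the urea cycle, had counts in each library. CPS1 was lower in every PN liver than in any bottle-fed liver (18460 to 48850 in the 5 PN livers and 5290 in PN 5, against 49680 to 58310 normalized counts). Genes with counts were those that the authors had selected as differing, and the other hepatocyte markers were not compared.

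Lipid-associated macrophages have been described in mouse and human in fatty liver and in adipose tissue. They gather where lipid or dying cells build up, take up lipid through receptors such as TREM2 and break it down in lysosomes. TREM2 senses lipids and lipoproteins at the cell surface and signals through the adaptor TYROBP. GPNMB and CD68 are glycoproteins of lysosomal membranes, CD63 and CD9 are tetraspanins of endosomes and the plasma membrane, and LGALS3 and SPP1 encode proteins that such cells secrete. Osteopontin is also made by bile duct epithelium, and galectin-3 by many epithelia.

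The 250 bases before the RefSeq start of each gene were read from Sscrofa11.1, strand by strand, to show what lies upstream of LGALS3, GPNMB and SPP1, the members with reads in every liver, and of CD68, the only member with a motif match. The windows lie at chr1:184478389-184478638 (+ strand) for LGALS3, chr9:92037178-92037427 (+ strand) for GPNMB, chr8:131085335-131085584 (- strand) for SPP1 and chr12:52874504-52874753 (+ strand) for CD68. Each is printed 5′ to 3′ in the direction of its gene, and capitals mark matches to the AP-1 motif.
LGALS3: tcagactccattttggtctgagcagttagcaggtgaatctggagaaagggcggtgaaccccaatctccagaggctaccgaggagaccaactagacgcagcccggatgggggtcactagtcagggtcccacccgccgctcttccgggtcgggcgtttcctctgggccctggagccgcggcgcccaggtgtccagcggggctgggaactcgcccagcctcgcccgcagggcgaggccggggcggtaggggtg
GPNMB: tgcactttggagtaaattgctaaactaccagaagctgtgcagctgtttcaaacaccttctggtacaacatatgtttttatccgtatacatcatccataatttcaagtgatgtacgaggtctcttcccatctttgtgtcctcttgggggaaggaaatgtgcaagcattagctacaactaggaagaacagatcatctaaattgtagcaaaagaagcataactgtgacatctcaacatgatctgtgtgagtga
SPP1: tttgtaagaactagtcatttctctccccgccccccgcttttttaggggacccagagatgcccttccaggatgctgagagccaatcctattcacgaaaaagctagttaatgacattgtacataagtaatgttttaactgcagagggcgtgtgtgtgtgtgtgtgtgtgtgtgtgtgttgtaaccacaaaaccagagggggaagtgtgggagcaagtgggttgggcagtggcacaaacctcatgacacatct
CD68: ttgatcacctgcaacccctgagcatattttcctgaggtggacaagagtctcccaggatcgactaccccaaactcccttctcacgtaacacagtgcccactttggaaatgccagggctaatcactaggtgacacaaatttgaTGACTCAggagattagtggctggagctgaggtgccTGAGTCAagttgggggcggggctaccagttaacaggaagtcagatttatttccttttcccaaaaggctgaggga

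The motifs searched, on both strands, were AP-1 (TGANTCA), the E-box (CACGTG) and M-box (TCATGTG) bound by the MiT/TFE factors of lysosomal genes, PU.1 (GAGGAAGT) and NF-kB (GGANTTTCC). CD68 held 2 AP-1 matches, TGACTCA 109 bases and TGAGTCA 74 bases before the start, and no other of the 7 members held a match to any of the 5 motifs. Of 19545 gene starts, 5.26% had an AP-1 match in a window of this length, 6.39% an E-box, 1.93% an M-box, 1.64% the PU.1 motif and 1.36% the NF-kB motif. GC content ran from 39.6% upstream of GPNMB to 73.6% upstream of CD9, with 67.2% for LGALS3 and 48.0% for SPP1. LGALS3 has a further RefSeq start 7488 bases downstream of the start used here.

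For all 4 members with counts, each PN liver was above each bottle-fed liver, PN 5 included. The same separation held for 439 of the 1054 genes (41.7%), which the authors had already selected as differing between the groups, and nothing is read from the members' count. By edgeR's quasi-likelihood test, 54.1% of the 1054 genes were higher and 45.6% lower with PN at an adjusted p under 0.05, so nearly every gene with counts passed.

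LGALS3 encodes galectin-3, a lectin that binds beta-galactosides on glycoproteins and is secreted by activated macrophages. The gene (ENSSSCG00000005055) lies on chromosome 1 at 184478710 to 184497951 on the + strand. Its normalized counts, reads divided by the size factor of the library, were 6.54, 6.92 and 8.33 in bottle-fed 1 to 3. In PN 1 to PN 6 they were 162, 639, 376, 352, 704 and 280. Galectin-3 transcript was thus at 6 to 8 reads in each bottle-fed liver and at 166 to 757 reads in each PN liver. The mean was 7.26 ± 0.945 (SD, n = 3) in bottle-fed and 362 ± 176 (SD, n = 5) in PN livers, a ratio of means of 49.8, or 57.7 with PN 5. On the log2(normalized count + 1) scale the PN livers were higher by 5.33, the widest gap among LGALS3, SPP1 and GPNMB. The lowest PN liver, PN 1, stood 19.4-fold above the highest bottle-fed liver.

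GPNMB encodes a transmembrane glycoprotein of lysosomes and melanosomes that rises when lysosomes are loaded with lipid. The gene (ENSSSCG00000032241) lies on chromosome 9 at 92037423 to 92118040 on the + strand, a span that also covers IGF2BP3 on the other strand and MALSU1 on the same strand in RefSeq, so reads of these neighbours may be included. Its normalized counts were 552, 537 and 502 in the bottle-fed livers. PN 1 to PN 6 had 3315, 4880, 6739, 7100, 1728 and 2150. The lowest PN liver, PN 5, stood 3.13-fold above the highest bottle-fed liver. The mean was 530 ± 25.6 (SD, n = 3) with bottle feeding and 4837 ± 2138 (SD, n = 5) with PN, a ratio of means of 9.12, or 8.14 with PN 5. The log2 difference was 3.05.

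SPP1 encodes osteopontin, a secreted phosphoprotein that binds integrins and CD44 on macrophages and other cells. The gene (ENSSSCG00000009216) lies on chromosome 8 at 131077786 to 131085340 on the - strand. Its normalized counts were 145, 194 and 121 in the bottle-fed livers and 621, 1022, 403, 603, 1215 and 290 in PN 1 to PN 6. Osteopontin was therefore readily detected without PN, unlike galectin-3, and PN 6 was only 1.5-fold above bottle-fed 2. The mean was 153 ± 37.1 (SD, n = 3) in bottle-fed and 588 ± 279.5 (SD, n = 5) in PN livers, a ratio of means of 3.84, or 4.52 with PN 5. The log2 difference was 1.83.

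TREM2 encodes a lipid-sensing receptor of myeloid cells. The gene (ENSSSCG00000039270) lies on chromosome 7 at 36464034 to 36471516 on the - strand. No read was counted in any of the 3 bottle-fed livers, and 4, 14, 3, 1, 33 and 7 reads were counted in PN 1 to PN 6. TREM2 was thus the rarest member, seen in every PN liver but at a single read in PN 4. Its normalized counts in the PN livers were 3.90, 11.8, 2.89, 0.927, 36.6 and 8.0, with a mean of 5.50 ± 4.37 (SD, n = 5) without PN 5. Zero reads allow up to 3 counts over the bottle-fed group, a floor of 0.983 normalized counts that covers counting error only. The mean of the 5 PN livers, taken as exact, was 5.60 times this floor, which is used as a lower bound of the fold difference. PN 4 lay below that floor. The bound was 3.35 without bottle-fed 1, 3.99 without PN 2 and 10.9 with PN 5 included.

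**Figure D1:**
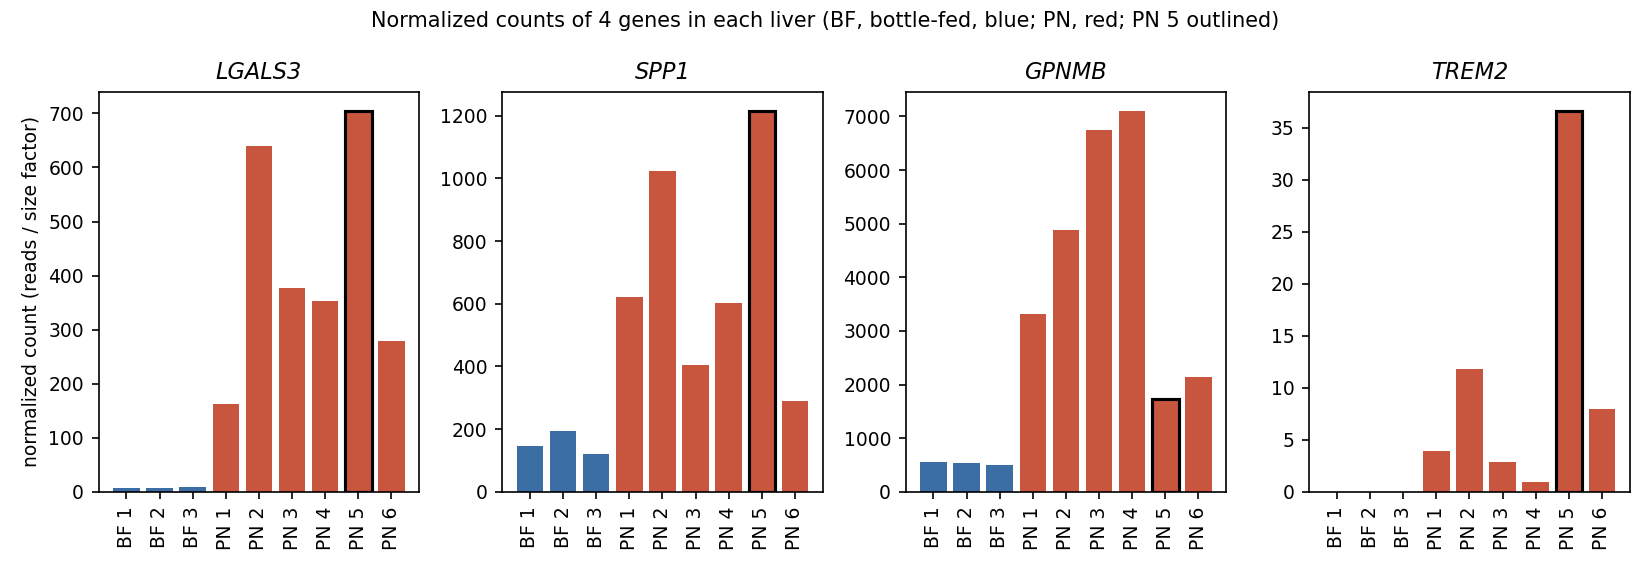
Normalized counts (reads divided by the size factor) of LGALS3, SPP1, GPNMB and TREM2 in each liver, 1 bar per liver, with bottle-fed in blue, PN in red and PN 5 outlined in black. Every red bar is above every blue bar in each panel, and PN 5 is the highest bar for LGALS3, SPP1 and TREM2 but the lowest PN bar for GPNMB.

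CD9, CD63 and CD68 had no counts per library here, so whether they differed between PN and bottle-fed livers was not analysed. Their authors' means, over libraries that the sources used here do not list, were 284 normalized counts for CD9 (ENSSSCG00000022230), 3209 for CD63 (ENSSSCG00000000361) and 793 for CD68 (ENSSSCG00000017956). CD9 and CD63 are tetraspanins, proteins that organise other membrane proteins and mark exosomes, and CD68 is a scavenger-receptor-like glycoprotein of macrophage lysosomes. In RefSeq, CD9 lies on chromosome 5 at 64420177 to 64459783 and CD63 on chromosome 5 at 21172275 to 21176225, both on the - strand, and CD68 on chromosome 12 at 52874754 to 52877256 on the + strand. CD63 overlaps LOC102162669 and LOC106510300 there. Per kilobase of RefSeq exon, the authors' mean was highest for CD63 (2342), followed by GPNMB (1087), CD68 (646.5), SPP1 (299), CD9 (235) and LGALS3 (221). This order is of a mean that pools libraries, and for LGALS3, GPNMB and SPP1 the level depended on the group. TREM2 has no such mean.

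Within a liver, levels of the 4 members with counts were set in order by FPKM, a level per kilobase of gene model and library total. The order was GPNMB, SPP1, LGALS3 and TREM2 in all livers except PN 5, where SPP1 (40.8 FPKM) was above GPNMB (23.4 FPKM). The FPKM ratio of SPP1 to GPNMB was 1.75 in PN 5 and between 0.149 and 0.895 in the other livers. The place of LGALS3 depended on the gene model, since the authors' model is 6012 bases long and the RefSeq exons 1071 bases. On RefSeq exon lengths LGALS3 was above SPP1 in 2 of 6 PN livers (PN 3, with 17.7 against 13.3, and PN 6, with 13.2 against 9.53) and in 0 of 3 bottle-fed livers. Bottle-fed livers thus held the 3 detected genes in the same order on either length, with LGALS3 between 0.311 and 0.395 and GPNMB between 7.88 and 8.69 on RefSeq exons.

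Among the PN livers the members did not share an order. LGALS3 was highest in PN 5 and PN 2 and lowest in PN 1. SPP1 was also highest in PN 5 and PN 2 but lowest in PN 6, and GPNMB was highest in PN 4 and PN 3 and lowest in PN 5. The coefficient of variation over the 5 PN livers was alike for LGALS3 (48.6%), SPP1 (47.5%) and GPNMB (44.2%), and 79.4% for TREM2. In the 3 bottle-fed livers it was 13.0%, 24.3% and 4.83% for LGALS3, SPP1 and GPNMB, below the PN value for each. LGALS3 had only 6 to 8 reads there, and TREM2 only 1 to 14 reads in the 5 PN livers. At such counts the coefficient depends much on counting error, and a difference in spread between the groups was not tested.

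Relations among the 4 members were computed over the 6 PN livers on the log2 scale, 6 pairs in all, with two-sided exact permutation tests whose smallest possible p was 0.00278. GPNMB and TREM2 had the widest departure from 0, with Pearson's r = -0.786 (exact permutation p = 0.0639, adjusted p = 0.383 over the pairs) and Spearman's rho = -0.829 (exact permutation p = 0.0583, adjusted p = 0.35). Without the 2 livers farthest from the median of GPNMB, PN 5 and PN 6, r was -0.496, and without PN 5 alone -0.592. LGALS3 and SPP1 had r = 0.62 (exact permutation p = 0.183, adjusted p = 0.395) and rho = 0.6 (exact permutation p = 0.242, adjusted p = 0.446). Their r was 0.917 without PN 1 and PN 5, the livers farthest from the median of LGALS3, and 0.414 without PN 5 alone. No pair passed the threshold of 0.05, before or after adjustment. Of the remaining pairs, LGALS3 with TREM2 had r = 0.6 (exact permutation p = 0.206, adjusted p = 0.395) and SPP1 with TREM2 r = 0.546 (exact permutation p = 0.263, adjusted p = 0.395). Without PN 5 these were 0.303 and 0.144. GPNMB had r = -0.075 with LGALS3 (exact permutation p = 0.871, adjusted p = 0.871) and r = -0.148 with SPP1 (exact permutation p = 0.768, adjusted p = 0.871). Both of these were positive without PN 5 (0.473 and 0.416). Without the 2 livers farthest from the median of LGALS3 and of SPP1, respectively, r was 0.385 and -0.383, so neither has a stable sign.

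**Figure D2:**
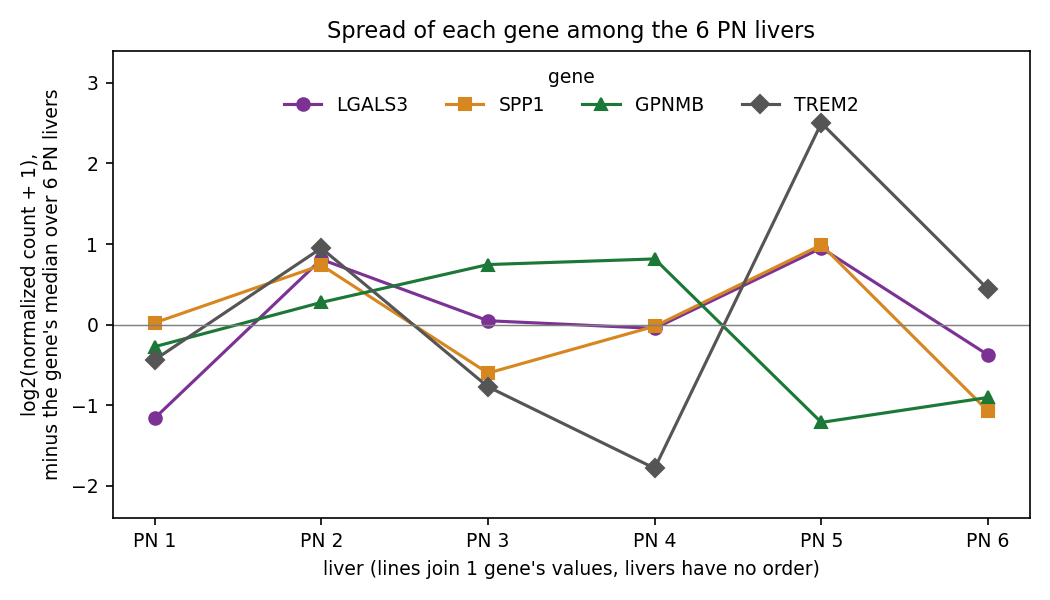
Level of each member in the 6 PN livers as log2(normalized count + 1) minus the median of that gene over the 6 PN livers. Each symbol and colour is 1 gene and lines only join its values. GPNMB is lowest in PN 5, the liver in which LGALS3, SPP1 and TREM2 are highest.

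The genes with the most similar profile to each member were found by the root mean square difference of log2(normalized count + 1), centred on the bottle-fed mean, over all 9 livers and 826 other genes with a symbol. This measure rewards the same size of difference and the same pattern among PN livers, and says nothing of shared control. For LGALS3 the nearest gene was CLDN7, a tight junction protein of epithelia, at 0.874 against a median of 3.72 over all genes. CLDN7 went from a mean of 49.4 normalized counts in bottle-fed to 1369 in PN livers, with 2584 in PN 5. MFSD2A (0.908), the transporter of lysophosphatidylcholine that carries docosahexaenoic acid, BNIP5 (0.927), TGM3 (1.13), a transglutaminase of epithelia, and NEURL3 (1.18) followed. BNIP5, TGM3 and NEURL3 had bottle-fed means of only 0.768, 0 and 0.731 normalized counts. The size of their difference thus depends much on the 1 added before the log.

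The genes nearest to SPP1 were S1PR3 at 0.345 and TOX3 at 0.352, with a median of 1.55 over all genes. This median was the smallest among the 4 members with counts, so distances are not compared between members. S1PR3, a receptor of sphingosine 1-phosphate, had means of 56.2 and 201 normalized counts in bottle-fed and PN livers, and 415 in PN 5. EPCAM, the surface marker of bile duct epithelium and of liver progenitor cells, was the third nearest at 0.455, with NEDD9 (0.46) and SULF2 (0.502) next.

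GPNMB was nearest to SLC13A5, the citrate transporter of hepatocytes, at 0.418, where the median over all genes was 1.78. SLC13A5 had means of 445 and 3070 normalized counts in bottle-fed and PN livers and, like GPNMB, was lowest among PN livers in PN 5 (1371). PLIN2, the coat protein of lipid droplets, was also among the 5 nearest (0.609), with B3GNT7 (0.582), GRM8 (0.663) and TOX2 (0.689). GRM8 and TOX2 had bottle-fed means of only 0.657 and 0.273 normalized counts, so the 1 added before the log weighs on their profiles. TREM2 was nearest to MMP13, a collagenase, at 0.449 and with few counts in both groups (a mean of 0.545 in bottle-fed and 8.50 in the 5 PN livers, with 44.4 in PN 5). DUSP2 (0.708), SNORA66 (0.746) and XIRP1 (0.766) were also among the 5 nearest, against a median of 2.00 over all genes. SNORA66 and XIRP1 had 0 normalized counts in the bottle-fed livers, so the same limit holds for them.

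**Figure D3:**
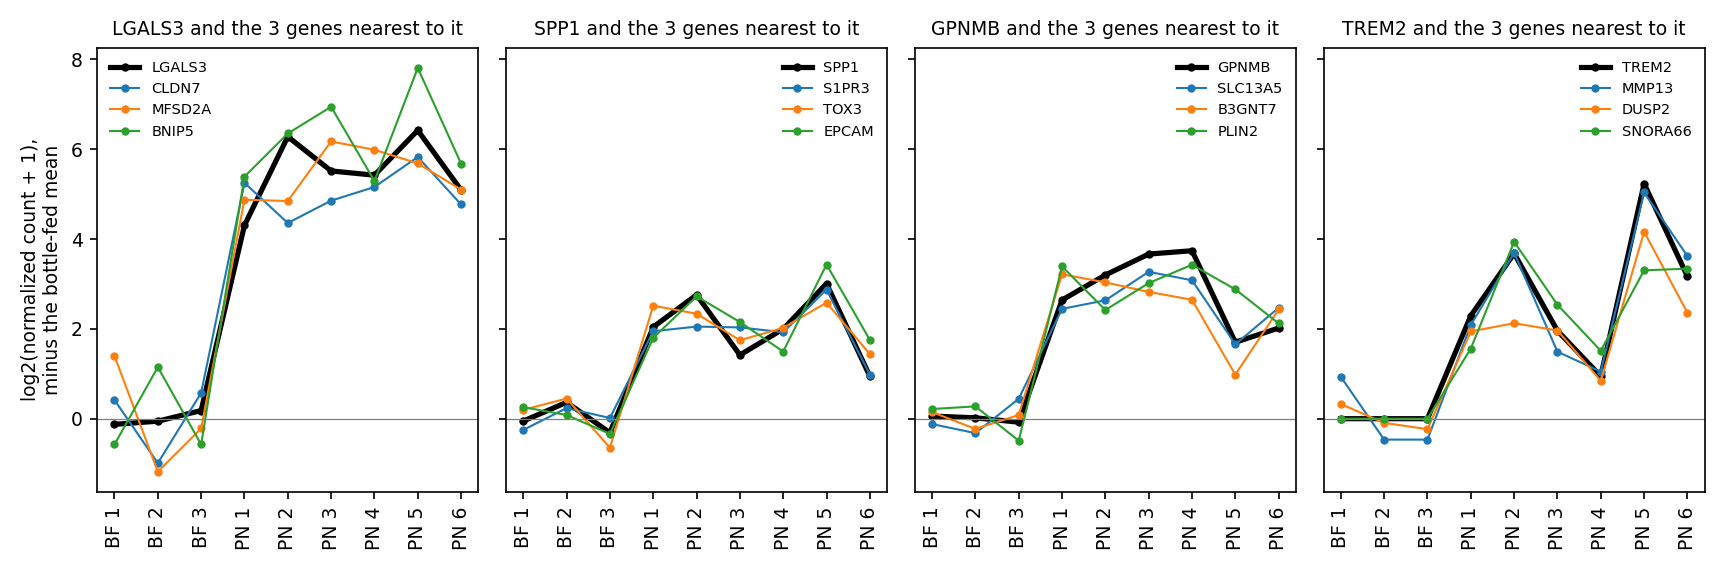
Profiles of LGALS3, SPP1, GPNMB and TREM2 (black) and of the 3 genes nearest to each (coloured) over the 3 bottle-fed and 6 PN livers, as log2(normalized count + 1) minus the bottle-fed mean of the gene. SPP1 and EPCAM share their highest value in PN 5, where GPNMB, SLC13A5 and B3GNT7 have their lowest PN value.

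The other genes of these pathways were taken from 14 lists of 279 genes, of which 27 had counts in each library. By edgeR's quasi-likelihood test at an adjusted p under 0.05, 20 of the 27 were higher and 7 lower with PN. Of all 1054 genes, 54.1% were higher and 45.6% lower by the same test. Of the 27, 22 did not overlap between the 3 bottle-fed and the 5 PN livers, and the same held for 897 of the 1054 genes (85.1%). Counts were deposited only for genes that the authors had selected as differing, so the adjusted p-values are over a preselected table and are no independent evidence of a difference. A listed gene with no counts was not compared between the groups here. Over the 1054 genes the median log2 fold change was 0.99. With PN 5 included, no absolute log2 ratio of group means was below 0.997, so large differences were part of the selection.

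Of the partners of galectin-3, none of 9 listed galectin genes had counts per library. LGALS3BP, the secreted glycoprotein that binds galectin-3, had an authors' mean of 2943 normalized counts and LGALS8 of 2272, whereas LGALS1 had 273.9 and LGALS4, a galectin of the gut, 5.07. Of 14 listed osteopontin receptors and related matrix genes, 1 had counts. ITGB3, the integrin beta 3 subunit that pairs with alpha v to bind osteopontin, rose from 365 ± 144.5 (SD, n = 3) to 775 ± 206 (SD, n = 5) normalized counts (log2 fold change 1.09, edgeR adjusted p = 0.00666), and PN 5 had 2022. CD44, another osteopontin receptor, had only an authors' mean of 769.5 normalized counts.

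Around TREM2, PIK3AP1 rose and APOA2 fell with PN, and no other of the 15 genes listed had counts. PIK3AP1, an adaptor that couples immune receptors to PI3 kinase, had 468 to 631 normalized counts in bottle-fed and 1283 to 2019 in the 5 PN livers (log2 fold change 1.62, edgeR adjusted p = 0.000261), with 2124 in PN 5. APOA2, a protein of high density lipoprotein made by hepatocytes, went from 23060 ± 4417 (SD, n = 3) to 9568 ± 2484 (SD, n = 5) normalized counts (log2 fold change -1.27, edgeR adjusted p = 0.00196), and PN 5 had 7054. The adaptor TYROBP, which marks myeloid cells, had an authors' mean of 346.7 normalized counts and was not compared.

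Of 40 other genes described in lipid-associated macrophages of mouse and human, 33 were in the table of all genes and 5 had counts. By edgeR 4 of these were higher and 1 lower (54.1% and 45.6% of all 1054 genes), with a median log2 fold change of 1.36. Genes with counts were preselected as differing, so nothing is read from this count or median. PLIN2, which coats lipid droplets in many cells including hepatocytes, had 447, 465.7 and 274 normalized counts in the bottle-fed livers and 4050, 2065, 3130, 4153, 2842 and 1680 in PN 1 to PN 6 (log2 fold change 2.93, edgeR adjusted p = 7.67e-05). MMP14, a membrane-bound matrix protease, rose from 1221 ± 15.7 (SD, n = 3) to 3056 ± 1016 (SD, n = 5), with 2116 in PN 5, a log2 fold change of 1.32 and an edgeR adjusted p of 0.00178. LPL, the lipase that frees fatty acids from lipoproteins, was rare in bottle-fed livers (0 to 4.09 normalized counts) and had 8.78 to 25.3 in the 5 PN livers (log2 fold change 2.79, edgeR adjusted p = 0.0103) and 106.5 in PN 5. S100A6, a small calcium-binding protein, rose from 37.6 to 97.3 (edgeR adjusted p = 0.00631), with 161 in PN 5. ATP6V0D2, a proton pump subunit of lysosomes in macrophages, was lower with PN (log2 fold change -1.72, edgeR adjusted p = 0.0116), but its groups overlapped and the adjusted p was 0.328 without bottle-fed 1 (0.00512 to 0.328 over 13 alternatives).

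Lipid droplet and lipid uptake genes had 4 of 20 members with counts. Each was higher with PN, as were 54.1% of all 1054 preselected genes, and the median log2 fold change was 2.12. PLIN2 and LPL were already counted in the list above, so the lists are not separate. The other genes with counts were PLIN3 and PLIN4. PLIN3 rose from 594 to 1232 normalized counts (log2 fold change 1.05, edgeR adjusted p = 0.00493, PN 5 at 1742). PLIN4 rose from 96.4 ± 21.2 (SD, n = 3) to 263 ± 27.0 (SD, n = 5) with an edgeR adjusted p of 0.000776. PLIN3 and PLIN4 are, like PLIN2, coat proteins of lipid droplets. PLIN4 had 69.9 normalized counts in PN 5, below every bottle-fed liver.

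Of 34 lysosomal genes listed, 32 were in the table of all genes, and the only gene with counts, GALC, fell with PN. GALC, which degrades galactosylceramide, had 139.8 to 234 normalized counts in bottle-fed and 47.3 to 101 in PN livers (log2 fold change -1.45, edgeR adjusted p = 0.00196). None of 20 other tetraspanins listed with CD9 and CD63 had counts. CD81 had an authors' mean of 10600 normalized counts, the highest of the other tetraspanins.

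Authors' means of the listed macrophage and Kupffer cell markers ran from 17.7 normalized counts for MS4A7 to 23470 for CD14. Between these lay C1QA (5163), CD163 (2954) and CSF1R (2032), the receptor of a macrophage growth factor, but also ITGAM (124) and CD209 (48.4). Of 28 listed macrophage and Kupffer cell markers, 23 were in the table of all genes and 1 had counts. That gene, SPIC, a transcription factor of red pulp and iron-handling macrophages, was lower with PN, at 24.5 to 71.2 against 99.8 to 124.5 normalized counts (log2 fold change -1.07, edgeR adjusted p = 0.0132), though with an adjusted p of 0.0503 without bottle-fed 2 (0.00744 to 0.0545 over 13 alternatives). The levels of the other macrophage markers were not compared between the groups, so their part in the values of LGALS3, SPP1, GPNMB and TREM2 was not tested. Of 20 monocyte and neutrophil markers, 13 were in the table of all genes and 2 had counts, so the others were not compared. CSF3R (log2 fold change 1.77, edgeR adjusted p = 0.0246) and CCR1 (1.22, adjusted p = 0.0118) were higher with PN. So were 54.1% of all 1054 preselected genes, and for both CSF3R and CCR1 the groups overlapped. CSF3R had an adjusted p of 0.0853 without bottle-fed 1, 0.0848 without bottle-fed 2 and 0.0888 without PN 2 (0.01 to 0.0888 over 13 alternatives). None of 17 T, NK and B cell markers had counts.

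Bile duct markers had the most members with counts of the cell type lists, 8 of 24, with 7 of them higher with PN and 1 lower (54.1% and 45.6% of all 1054 genes), and a median log2 fold change of 1.33. Counts were there for 1054 genes, against 16223 in the table of all genes, and these had been selected as differing. Nothing is therefore read from this rank or from the split into higher and lower. The summed level of the 8 bile duct genes was 5618 to 7461 normalized counts in bottle-fed and 12300 to 19750 in the 5 PN livers, with 19610 in PN 5. TM4SF4 and CLDN4 made up most of the sum, and since it covers only preselected genes, of which 85.1% did not overlap between the groups, nothing is read from its separation. Their part in the higher LGALS3 and SPP1 was not tested. CLDN7 rose from 49.4 ± 24.1 (SD, n = 3) to 1369 ± 320 (SD, n = 5) normalized counts (log2 fold change 4.78, edgeR adjusted p = 3.69e-06). EPCAM rose from 81.8 ± 16.8 (SD, n = 3) to 337 ± 122 (SD, n = 5), with a log2 fold change of 2.04 and an edgeR adjusted p of 0.000413, and PN 5 had 881. KRT7, a keratin of bile ducts (1.55, edgeR adjusted p = 0.00257), MMP7, a protease of injured ducts (2.66, adjusted p = 0.00163, groups overlapping) and TM4SF4 (1.12, adjusted p = 0.00779) also rose on the log2 scale. PROM1, a progenitor marker, fell (-1.04, edgeR adjusted p = 0.0071).

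Stellate cell and endothelial markers had few genes with counts. DES, the intermediate filament of stellate cells, rose from 259 to 500.5 normalized counts (log2 fold change 0.95, edgeR adjusted p = 0.00294, PN 5 at 830) and TIMP1, an inhibitor of matrix proteases, from 61.9 to 122 (0.98, adjusted p = 0.0116, PN 5 at 388). DCN, a matrix proteoglycan, was lower (edgeR adjusted p = 0.00718) with overlapping groups. VWF, of endothelial cells, was higher (1.04, edgeR adjusted p = 0.0115). The adjusted p was 0.187 for DCN without bottle-fed 1 (0.00258 to 0.187 over 13 alternatives), 0.0501 for TIMP1 without bottle-fed 3 (0.00396 to 0.0501) and 0.0528 for VWF without bottle-fed 2 (0.00403 to 0.108).

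**Figure D4:**
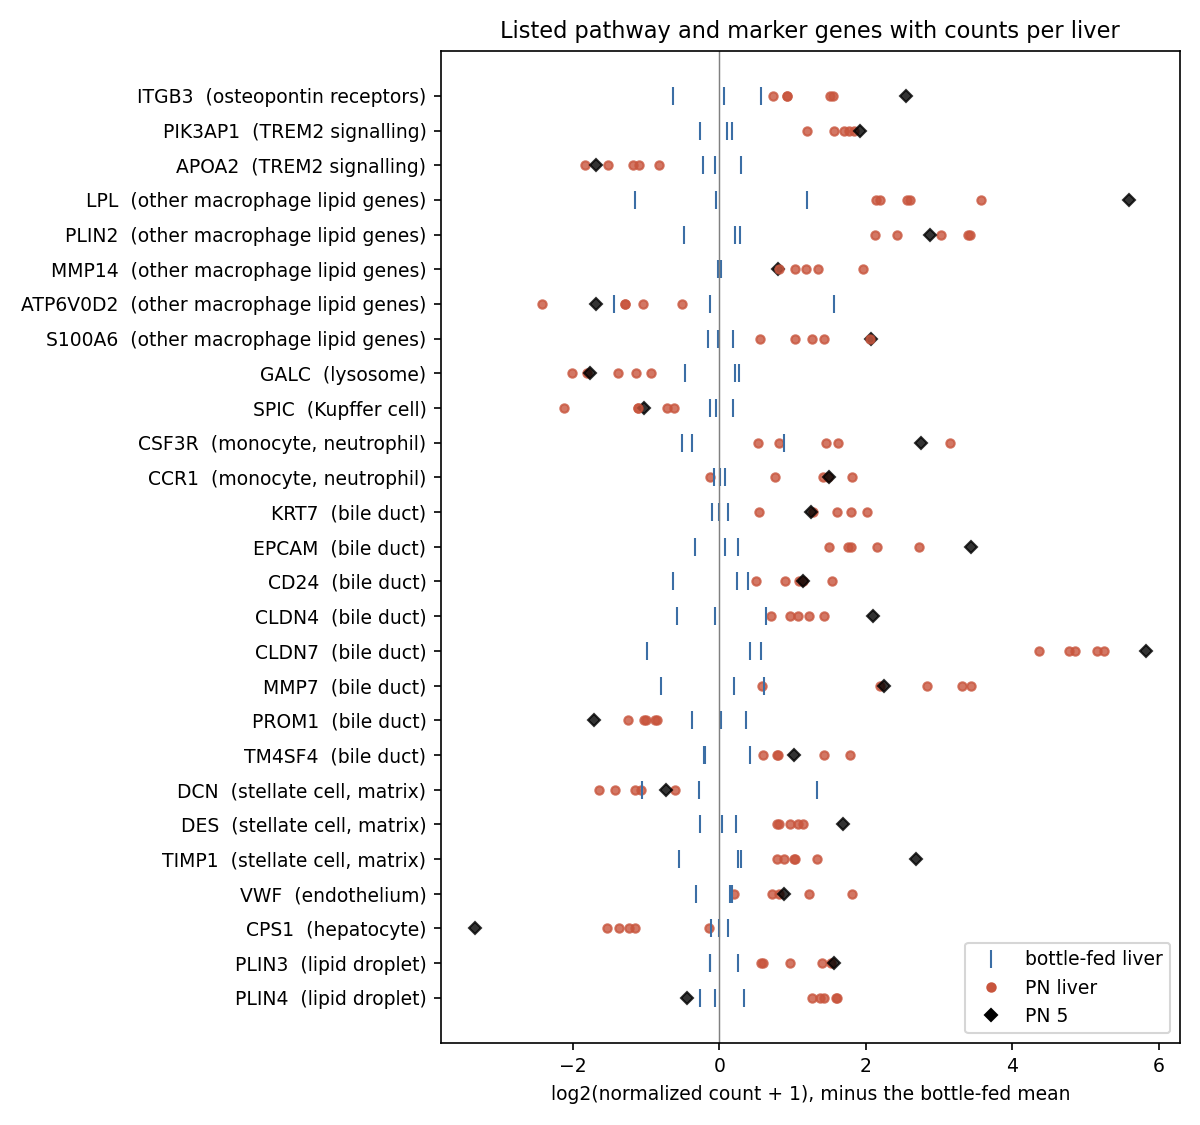
Levels of the 27 listed pathway and marker genes with counts in each liver, as log2(normalized count + 1) minus the bottle-fed mean of the gene, with bottle-fed livers as blue bars, PN livers as red dots and PN 5 as a black diamond. PLIN2, CLDN7 and EPCAM lie clear of the bottle-fed livers in every PN liver. ATP6V0D2, CSF3R, CCR1, MMP7 and DCN overlap even without PN 5. PLIN4 lies above the bottle-fed livers in the PN livers other than PN 5 but below them in PN 5.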

How the data were processed

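Polyadenylated liver mRNA was sequenced on an Illumina NovaSeq. Per the submitters' processing notes, cleaned reads were aligned by HISAT2 2.0.5 on Sscrofa11.1, assigned to genes by featureCounts 2.0.3 and compared by DESeq2 1.26.0, for which the study's methods give another version. The deposited count values are whole, unscaled reads of 1054 genes that the authors had selected as differing between the groups. The normalized signal deposited by the authors is the count divided by 1 size factor per library, and a table of 16223 genes gives the authors' mean of a separate fit, which is not the mean of these deposited values. The deposited FPKM values divide the counts by library total and length of the gene model, and gave back the library totals. The authors' columns of group means, fold changes and p-values were not used.

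The members and the gene lists were chosen with earlier results of these data known. Named genes are the 7 members, the 5 nearest profiles of each and per list, up to 6 called genes taken by adjusted p. Authors' means of listed genes and CLDN4 are named outside this rule, chosen after their values were seen. A gene that this rule names is not reported here. The 9 libraries were grouped by treatment, and 8 entered the tests, without PN 5. Counts were tested with edgeR 4.0.16 (quasi-likelihood, R 4.3.3) with the authors' size factors as offsets and Benjamini-Hochberg adjustment over the 1054 genes. The method was tested on simulated data. Alternatives were all 9 libraries, TMM, DESeq2 1.42.0, CPM, a mean of at least 10 normalized counts, other pseudocounts than 1, a replicate block and leaving out each library. Intervals and floors cover counting error only. No pair of libraries was a repeat deposit (chi-square over its degrees of freedom was at least 76.8 in 36 pairs). Each library is 1 piglet. Promoter windows and gene models were read from RefSeq on Sscrofa11.1, and 12470 genes of the table of all genes were given a symbol. Python 3.11.15 with scipy 1.17.1 was used for the rest.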

Additional observations from a re-analysis of the deposited data

Results flagged for a closer look

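In 7 of 31 genes examined (the members with counts and their companion genes), 1 of the 6 PN livers stood apart from the other 5 by Dixon's criterion for 6 values. The criterion's rate of about 1 in 20 is for independent, normally distributed values. These genes share the same 6 livers and normalized counts were used without logs, so nothing is read from the number of genes. In 6 of the 7 that liver was PN 5, which the study had already set aside as an outlier. TREM2 had 36.6 normalized counts in PN 5 against 0.927 to 11.8 in the others. ITGB3, the osteopontin-binding integrin subunit, had 2022 in PN 5 against 571 to 1011. LPL had 106.5 against 8.78 to 25.3, TIMP1 388 against 104 to 152 and DES 830 against 442.5 to 565, each in PN 5. PLIN4 was low in PN 5, at 69.9 against 229 to 291.5. The remaining gene was MMP14, with 4759 normalized counts in PN 3 against 2116 to 3099 in the other PN livers.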

How the results depend on the processing

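The log2 difference of LGALS3 ran from 5.09 to 5.58, that of SPP1 from 1.60 to 2.05 and that of GPNMB from 2.88 to 3.31 when each library was left out in turn. With a pseudocount of 5 the difference of LGALS3 was 4.77, below that range. The bound of TREM2 ran from 3.35 to 6.76 when each library was left out in turn and was 10.9 over all 9 libraries. The correlation of LGALS3 and GPNMB turned to 0.385 without the 2 livers farthest from the median of LGALS3. The counts of genes called stayed within 1.5 times of the 570 higher and 481 lower, at 573 and 481 over all 9 libraries, 571 and 481 with TMM, 569 and 481 with DESeq2 and 525 and 450 for genes with a mean of at least 10. The bottle-fed and PN piglets are different litters and share only replicate numbers, and same-numbered livers did not deviate together (correlations of -0.027, -0.0453 and -0.019). With the replicate block, 499 genes were called higher and 438 lower, and the log2 differences of LGALS3, SPP1 and GPNMB were 5.37, 2.07 and 3.17. The edgeR adjusted p with this block rose above 0.05 for CPS1 (0.106), SPIC (0.0545) and VWF (0.108), which were then not called. With 1 read in PN 4 and none in bottle-fed livers, TREM2 is limited by depth.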
